A study of Mus musculus with 4 samples.

Results

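A set of 8 named genes of neurotrophin signalling, 7 of them among the 19175 genes found in 1 or both of 2 deposited tables, was followed in mouse prelimbic cortex, part of the medial prefrontal cortex. They were chosen by symbol: the ligands Bdnf and Ntf3, the receptors Ntrk2, Ntrk3 and Ngfr, the sorting receptor Sort1, and the adaptors Shc3 and Frs2. RNA was sequenced from C57BL/6 mice aged 8 weeks, with 1 library in each of 4 groups. Control and stress-susceptible mice form the first pair, and both samples carry a tag for chronic social defeat stress, in which a mouse meets an aggressor day after day. What the control mice underwent is therefore unclear from the labels. The second pair received adeno-associated virus (AAV), a gene delivery vector, that expressed either green fluorescent protein (GFP) or CDYL, a chromodomain protein that acts as a transcriptional corepressor. The labels name neither the promoter of the virus nor the time after injection, and do not say whether animals were pooled. The pairs ask which genes differ with susceptibility to defeat and which differ when CDYL is overexpressed.

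Neurotrophins are small secreted growth factors made as precursors and cut to their mature forms. Mature BDNF acts mainly through the tyrosine kinase receptor TrkB (gene Ntrk2) and NT-3 (gene Ntf3) through TrkC (gene Ntrk3). The uncut precursors bind p75 (gene Ngfr) together with sortilin (gene Sort1). Activated Trk receptors recruit Shc proteins and the docking protein FRS2, which pass the signal to the MAP kinase and PI3 kinase arms. In cortex Bdnf is transcribed chiefly by excitatory neurons and follows their activity.

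The values are FPKM, fragments counted per kilobase of transcript and scaled for sequencing depth, so genes can be ranked within a library. Bdnf, Ntf3 and Shc3 appeared in both tables, and Ntrk3, Ngfr, Sort1 and Frs2 in the AAV table alone. Ntrk2 was in neither. Of genes above 0 in both libraries of a pair, the tables hold only those at least 0.32 apart on the log2 scale, so an absent gene either differed by less or was not measured. Thus 3 of 8 members were listed for the stress pair and 7 of 8 for the AAV pair. TrkB, the main receptor of BDNF, could not be described in either pair.

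Transcription of Bdnf starts at many exons that all splice to 1 shared coding exon, and an FPKM per gene sums over them. RefSeq lists 7 start windows for Bdnf on build GRCm38.p6, and 5 of the 8 members had at least 1 window, 12 in all. The 250 bases before each start were searched on both strands for 7 motifs: the cyclic AMP element TGACGTCA, the variant TCACGTCA known from a Bdnf promoter, the E-box CACGTG, the AP-1 motif TGANTCA, the EGR motifs GCGGGGGCG and GCGTGGGCG, and TTCAGCACC from the element bound by REST. Letters of any of these occurred in 3 of the 12 windows, printed here 5′ to 3′ on the gene's strand because they are the windows with a match; capitals mark the motif.
Bdnf window 2, chr2:109676782-109677031, plus strand: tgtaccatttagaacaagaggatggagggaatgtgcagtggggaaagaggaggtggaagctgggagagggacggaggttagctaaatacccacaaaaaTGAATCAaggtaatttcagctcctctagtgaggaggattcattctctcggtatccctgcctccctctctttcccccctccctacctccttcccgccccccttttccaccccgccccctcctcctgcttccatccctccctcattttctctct
Bdnf window 3, chr2:109692186-109692435, plus strand: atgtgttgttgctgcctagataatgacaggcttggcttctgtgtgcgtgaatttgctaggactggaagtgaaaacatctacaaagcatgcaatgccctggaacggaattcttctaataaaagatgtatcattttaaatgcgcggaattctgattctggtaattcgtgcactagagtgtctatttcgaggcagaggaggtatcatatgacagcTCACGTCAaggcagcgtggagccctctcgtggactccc
Ntf3 window 2, chr6:126166745-126166994, minus strand: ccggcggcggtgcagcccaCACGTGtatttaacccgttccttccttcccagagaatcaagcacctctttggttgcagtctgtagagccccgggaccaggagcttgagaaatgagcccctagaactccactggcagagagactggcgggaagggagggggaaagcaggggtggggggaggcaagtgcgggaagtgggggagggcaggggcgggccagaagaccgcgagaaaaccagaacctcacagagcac
In the third Bdnf window, TCACGTCA begins 38 bases before the start; this variant occurs in 0.35% of 32851 windows of the same length. The second Bdnf window holds TGAATCA, a match to the AP-1 motif present in 6.75% of windows, beginning 152 bases before the start. The Ntf3 window holds CACGTG, found in 6.02% of windows, 231 bases before the start. Of the others, TGACGTCA was present in 1.55% of all windows, the EGR motifs in 2.57% and 0.54%, and the REST motif in 0.3%, and none of these was in a member's window. The 7 Bdnf windows ranged from 39.2% to 59.6% in GC content and from 1 to 13 CpG dinucleotides, against medians of 52.4% and 6 over all windows. The FPKM values do not separate these starts, so which of them carried the differences described next cannot be read from the tables.

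Bdnf was lower in the second library of both pairs. In the first pair Bdnf (ENSMUSG00000048482, mm10 chromosome 2, 109674700 to 109727007) was at 10.8 FPKM in control and 7.94 FPKM in susceptible, a 1.36-fold lower level. In the second pair it was at 12.5 FPKM with AAV-GFP and 8.57 FPKM with AAV-CDYL, 1.46-fold lower. The differences on the log2(FPKM + 1) scale were -0.40 and -0.50, short of the 1.5-fold used here as a rule of size. With 1 library per group there is no spread between replicates to set these against, and no test was made. The values rest on an estimated 659 and 784 fragments in the stress pair and 1212 and 876 in the AAV pair. Counting error alone gave 95% intervals (exact binomial) of 0.659 to 0.814 for the ratio of susceptible to control and 0.626 to 0.746 for that of AAV-CDYL to AAV-GFP, which leave out differences between animals. In the authors' deposited table Bdnf has p = 0.17375 in the stress pair and p = 0.3424 in the AAV pair, with q = 0.999 in both. Of its exonic bases, 14.4% lie in an antisense gene, Gm45346, and the library kit does not mark strand.

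NT-3 was the ligand that went the other way, at a far lower level. Ntf3 (ENSMUSG00000049107, chromosome 6, 126101412 to 126166910) was at 0.423 FPKM in control and 0.783 FPKM in susceptible, a 1.85-fold higher level. It was at 0.153 FPKM with AAV-GFP and 0.697 FPKM with AAV-CDYL, 4.56-fold higher. All 4 values are under 1 FPKM, the floor used here for a call. About 9 and 27 fragments stood behind the stress pair and about 5 and 25 behind the AAV pair, and the counting intervals of the ratio were 0.843 to 4.46 and 1.78 to 15.8. The first interval includes equal levels, so at this depth no difference of Ntf3 was detectable between susceptible and control. The amount of Ntf3 per 100 of Bdnf in the same library was 3.90 in control, 9.85 in susceptible, 1.22 with AAV-GFP and 8.14 with AAV-CDYL.

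Another listed ligand was also scarce. Ntf5, neurotrophin 4/5, the other ligand of TrkB, was at 0.291 FPKM with AAV-GFP and 0.137 FPKM with AAV-CDYL, with an interval of 0.136 to 1.23, and was absent from the stress table. In the plot of levels Ntf3 and Ntf5 lie under the line at 1 FPKM in every library that lists them.

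**Figure D1:**
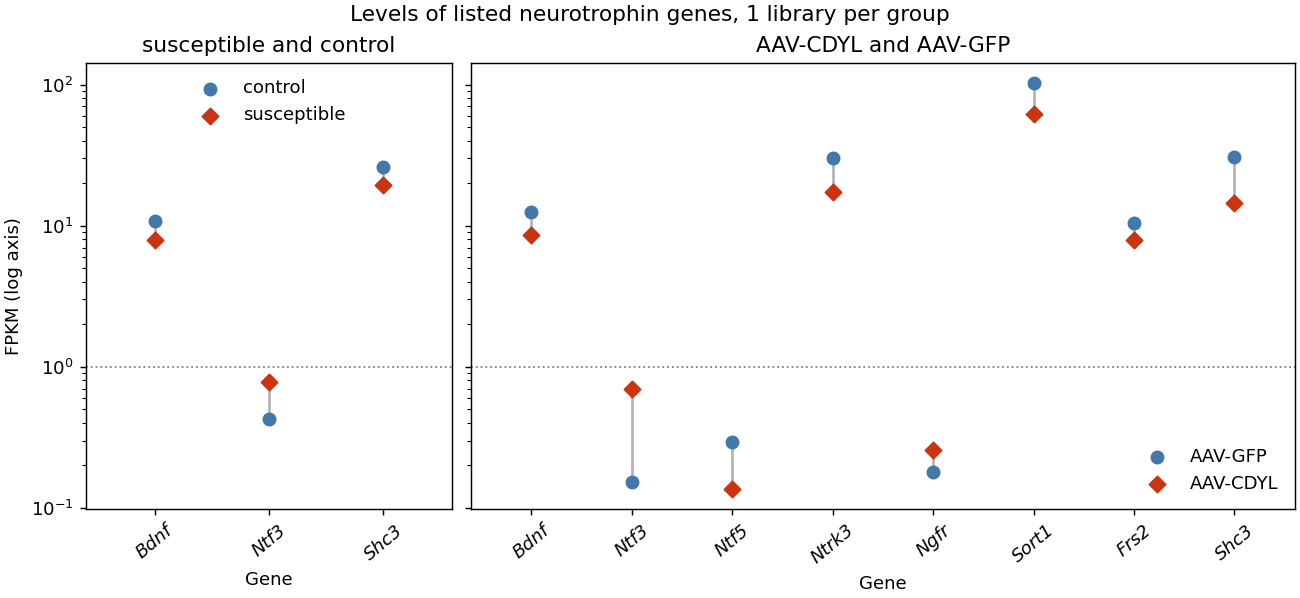
Level in FPKM (log axis) of each listed member and of Ntf5 in the 1 library of each group, with circles for control or AAV-GFP, diamonds for susceptible or AAV-CDYL, and a dotted line at 1 FPKM. Bdnf and Shc3 lie lower in the second library of both pairs, and Ntf3 lies higher in both (0.423 to 0.783 and 0.153 to 0.697 FPKM).

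Among the receptors, TrkC was lower with CDYL and p75 was close to the limit of measurement. Ntrk3 (ENSMUSG00000059146, chromosome 7, 78175959 to 78738012) was at 30.1 FPKM with AAV-GFP and 17.4 FPKM with AAV-CDYL, 1.73-fold lower, a difference of -0.76. With its ligand higher and the receptor lower, Ntf3 per 100 of Ntrk3 was 0.509 with AAV-GFP and 4.01 with AAV-CDYL. These ratios rest on about 5 and 25 fragments of Ntf3, which was under 1 FPKM in both libraries. Ntrk3 encodes kinase and shortened receptors, which a value per gene does not separate. Ngfr (chromosome 11, 95568818 to 95587735) was at 0.180 FPKM with AAV-GFP and 0.256 FPKM with AAV-CDYL, or about 14 and 21 fragments, with a counting interval of 0.688 to 3.02 for the ratio.

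Sortilin was the most abundant listed member. Sort1 (ENSMUSG00000068747, chromosome 3, 108284082 to 108361511) was at 102 FPKM with AAV-GFP and 61.7 FPKM with AAV-CDYL, 1.65-fold lower, a difference of -0.72. It shares its locus with Gm12523, an antisense gene that covers 4.47% of its exonic bases. The relatives of sortilin, sorting receptors of the same domain family, were lower too: Sorl1 was at 72.5 and 37.6 FPKM, Sorcs1 at 15.6 and 7.59 FPKM, and Sorcs3 at 16.8 and 9.70 FPKM with AAV-GFP and AAV-CDYL. All 4 listed of 5 family members, Sort1 included, passed the 1.5-fold rule downward, with a median difference of -0.83. Over all genes at 1 FPKM or more in that pair, 14.4% were lower, and the median was 0.30. In the stress pair only Sorl1 of this family was listed, at 65.6 FPKM in control and 49.9 FPKM in susceptible.

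The neuronal adaptor Shc3 had the largest difference with CDYL among members at 1 FPKM or more. Shc3 (ENSMUSG00000021448, chromosome 13, 51431041 to 51567084), which couples Trk receptors to the Ras pathway in mature neurons, was at 30.9 FPKM with AAV-GFP and 14.5 FPKM with AAV-CDYL, 2.13-fold lower, a difference of -1.04. Only 119 of 8047 genes at the floor had a more negative difference. In the stress pair it was at 26.0 FPKM in control and 19.3 FPKM in susceptible, 1.35-fold lower. Bdnf per 100 of Shc3 was therefore nearly level in the stress pair, at 41.7 in control and 41.2 in susceptible, but 40.6 with AAV-GFP and 59.0 with AAV-CDYL. Shc1, the widely expressed relative, went the other way, at 2.65 FPKM with AAV-GFP and 5.61 FPKM with AAV-CDYL. Frs2 (ENSMUSG00000020170, chromosome 10, 117070129 to 117148474) was at 10.5 and 7.91 FPKM, 1.32-fold lower. In the authors' deposited table the 7 listed members have q = 0.999 in the AAV pair, apart from Ngfr with q = 1, and Shc3 has the smallest p of them, 0.0874.

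By level the members fell into 3 tiers in the AAV table: Sort1 first, then Shc3, Ntrk3, Bdnf and Frs2, then Ngfr and Ntf3. Shc3 was 1.03 times Ntrk3 with AAV-GFP and below it with AAV-CDYL, so this order turned. Bdnf was ahead of Frs2 in both libraries, and Ngfr was 1.18 times Ntf3 with AAV-GFP, where with AAV-CDYL Ntf3 was 2.73 times Ngfr. No spread is known for these neighbours.

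Read as a group, 3 of the 5 members at 1 FPKM or more were lower by the 1.5-fold rule in the AAV pair (Shc3, Ntrk3 and Sort1) and 0 were higher. Over all 8047 genes at this floor 14.4% were lower and 31.3% higher. All 5 lay below AAV-GFP, as did 46.6% of all genes, and their median difference was -0.72. In the stress pair 0 of the 2 members at the floor were lower and 0 higher, where 10.8% and 18.9% of 5334 genes were, and both lay below control, with a median of -0.41. The members were picked by name with earlier results on these tables known, so these counts describe them and do not set them apart. Centring on the median of all genes (0.24 in the stress pair and 0.30 in the AAV pair) brings 2 of 2 and 5 of 5 members past the rule downward. It also brings 36.0% and 44.4% of all genes there, with 9.97% and 20.3% higher.

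**Figure D2:**
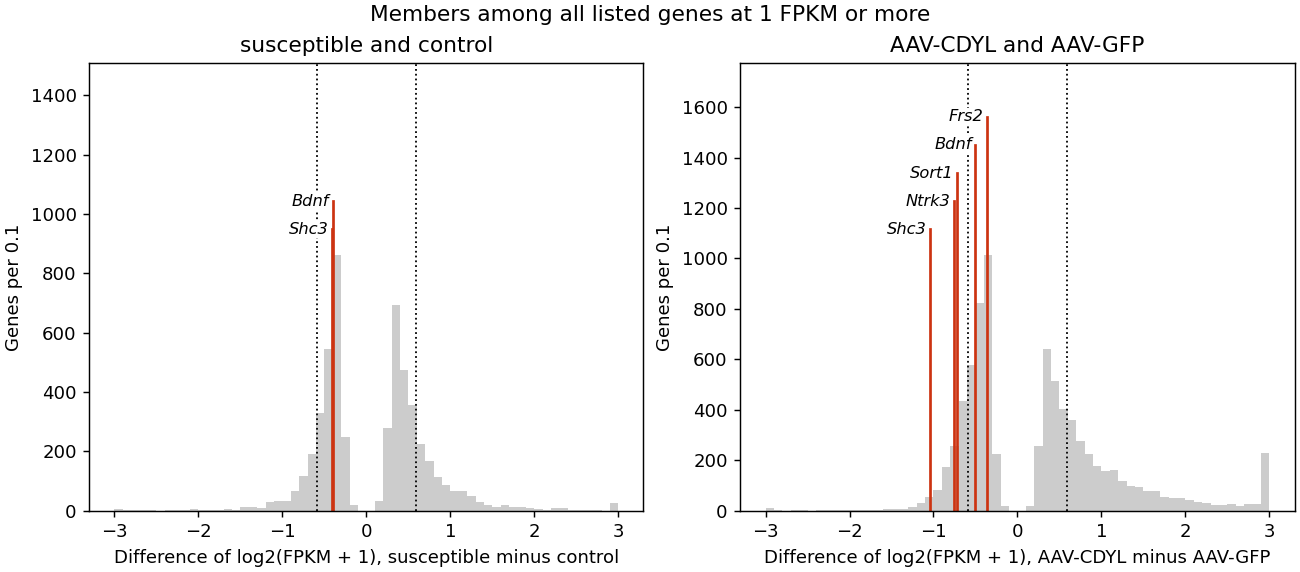
Number of genes per 0.1 of the difference of log2(FPKM + 1) for all listed genes at 1 FPKM or more, with members as red lines (their height carries no value) and the 1.5-fold rule as dotted lines; differences beyond 3 are stacked in the outermost bars. Genes near 0 are not listed, and the members lie on the negative side, from -0.36 (Frs2) to -1.04 (Shc3) in the AAV pair.

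Cell type markers differed within the pairs as well, in directions that varied by cell type. The vesicular glutamate transporter gene Slc17a7, a marker of cortical excitatory neurons, was abundant, at 803 FPKM with AAV-GFP and 568 FPKM with AAV-CDYL. All 10 listed of 12 neuron markers lay below AAV-GFP, with a median difference of -0.64 and a summed level of 4406 FPKM with AAV-GFP and 2814 FPKM with AAV-CDYL. All 7 listed in the stress pair lay below control, with a median of -0.47 and sums of 1869 and 1325 FPKM. Oligodendrocyte markers were higher for 10 of 10 with CDYL (sums of 655.5 and 2552 FPKM) and for 9 of 10 in susceptible (613.5 and 1583 FPKM), and microglia markers for 9 of 10 with CDYL (207 and 1403 FPKM). Microglia markers had 2 lower and 0 higher of 6 in susceptible (144 and 136 FPKM). Astrocyte markers were higher for 6 and lower for 1 of 7 with CDYL (211 and 708 FPKM) and higher for 3 and lower for 0 of 6 in susceptible (402 and 666 FPKM). Leukocyte markers, with Cd3g, Cd79a, Nkg7 and Cd8a at 0 with AAV-GFP, were higher for 8 of 8 and summed to 1.53 FPKM with AAV-GFP and 35.6 FPKM with AAV-CDYL. Only the neutrophil genes S100a8 and S100a9 of that list were present in the stress pair, both higher, with sums of 73.5 FPKM in control and 282 FPKM in susceptible. Endothelial markers were higher for 4 of 6 in susceptible (74.95 and 218 FPKM) and 3 of 6 with CDYL (89.9 and 170 FPKM), and lower for 0 in both. Markers of cerebellar, thalamic and striatal neurons went against the other neuron markers, higher for 6 of 7 in susceptible (48.7 and 93.3 FPKM) and 4 of 6 with CDYL (22.4 and 42.8 FPKM). Measured from the median of the neuron markers, a scale chosen after the values were seen, Bdnf differed by 0.06 in the stress pair and 0.14 in the AAV pair. On the same scale Shc3 was at 0.06 and -0.39, Ntrk3 at -0.11, Sort1 at -0.07 and Frs2 at 0.28, so none of the members at 1 FPKM or more passed the 1.5-fold rule. Members under that floor, which are not called, were at 0.79 and 1.20 (Ntf3, stress and AAV pairs) and 0.73 (Ngfr, AAV pair). Of all genes at the floor, 2.14% were lower and 52.3% higher on this scale in the stress pair, and 0.696% and 53.4% in the AAV pair. In tissue, fewer cells of a type and less RNA per cell cannot be told apart, and the part of neuronal RNA in these differences was not tested beyond those values.

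The wider pathway was read from lists of its parts, of genes upstream of BDNF and of genes that answer to the pathway. Their 140 genes other than the members included 49 at the floor for the stress pair and 74 for the AAV pair. In the stress pair 11 were lower and 2 higher by the 1.5-fold rule, and 36 of the 49 lay below control, with a median of -0.37. Of the 11 lower, 5 were BDNF-responsive genes, 2 feedback inhibitors, 1 a processing gene and 1 a regulator of Bdnf transcription. The receptor adaptors and the MAP kinase arm had 1 lower each, and the 2 higher were Gab1 and Eif4ebp1. Over all genes at that floor, 10.8% were lower, 18.9% higher and 47.7% below control, with a median of 0.24. In the AAV pair 29 were lower and 7 higher, and 60 of the 74 lay below AAV-GFP, with a median of -0.51. Over all genes there, 14.4% were lower, 31.3% higher and 46.6% below. The 29 included 6 BDNF-responsive genes, 4 regulators of Bdnf transcription, 2 feedback inhibitors and 1 processing gene.

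Most adaptors and docking proteins lay below the reference library, while those past the rule went both ways. Of 11 at the floor in the AAV pair, 8 lay below AAV-GFP, with a median of -0.38. By the rule 2 were lower (Shc3 and Ptprf, a receptor phosphatase at 32.3 and 20.2 FPKM) and 2 higher. Over all genes there, 14.4% were lower and 31.3% higher. In the stress pair 7 of 8 lay below control, with a median of -0.34, and 1 was lower and 1 higher by the rule. Gab1, a docking protein for PI3 kinase, was higher in both pairs, at 2.88 and 4.96 FPKM in control and susceptible and 3.38 and 8.59 FPKM with AAV-GFP and AAV-CDYL. Frs3, the paralog of Frs2, was at 22.1 FPKM in control and 11.3 FPKM in susceptible, with 18.5% of its exonic bases inside other genes. Of 5 p75 partners at the floor in the AAV pair, 3 lay above AAV-GFP, 1 of them past the rule, and 2 were lower, with a median of 0.26. The higher one was Ripk2, a kinase of inflammatory signalling, at 1.53 and 2.81 FPKM, and Lingo1, a co-receptor in the Nogo receptor complex, was lower at 176 and 91.1 FPKM. The sign of the median of these p75 partners depended on the setting. It was -0.6 with a floor of 5 FPKM, -0.17 with shared loci left out and -0.04 with centring on the median of genes. The 2 listed in the stress pair, Irak1 and Nradd, lay above control, at differences of 0.33 and 0.41, and neither passed the rule.

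Downstream, the calcium and CREB arm was lower for 5 of 9 genes with CDYL and higher for 0, with a median of -0.75. Itpr1, the IP3 receptor that releases stored calcium, was at 138 and 63.5 FPKM, Prkcb, a protein kinase C, at 459 and 241 FPKM, and the CREB kinase gene Camk4 at 22.3 and 12.2 FPKM. In the PI3 kinase arm 5 of 7 were lower, such as Gsk3b, the kinase that AKT inhibits, at 55.9 and 36.5 FPKM, while Eif4ebp1, the translation repressor that mTOR controls, was higher at 3.47 and 7.78 FPKM. Eif4ebp1 was higher in susceptible as well, at 2.83 and 5.05 FPKM. The other 3 PI3 kinase arm genes listed in the stress pair lay below control, 0 of them past the rule, and the list had a median of -0.39. All 3 listed genes of the calcium and CREB arm also lay below control there, with a median of -0.35 and 0 past the rule. The MAP kinase arm had 0 lower and 1 higher of 8 with CDYL, Rps6ka1, a ribosomal S6 kinase, at 3.75 and 12.4 FPKM. Of the 8, 6 lay below AAV-GFP, and the arm had a median of -0.40. In the stress pair its 5 listed genes had a median of 0.41, with 4 above control and Rap1a, a small GTPase, lower at 38.4 and 25.2 FPKM.

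Genes that answer to the pathway mostly lay below the reference library. Of 9 listed feedback inhibitors in the stress pair 8 lay below control, 2 of them past the rule: Dusp6, the phosphatase of ERK, at 31.7 and 15.0 FPKM, and Spry4, a Sprouty inhibitor of receptor kinases, at 4.06 and 2.26 FPKM. In the AAV pair 2 of 7 passed, Spred1 at 51.7 and 29.0 FPKM and Spred2 at 45.6 and 25.3 FPKM. BDNF-responsive genes, many of which neuronal activity also drives, had 5 of 9 lower and 0 higher in the stress pair (median -1.14), among them Egr2 at 6.15 and 0.787 FPKM. In the AAV pair 6 of 11 were lower and 0 higher (median -0.60), with Homer1 lowest at -1.53. Vgf encodes a secreted protein induced by BDNF, and the ratio of Bdnf to it was near level within each pair. Bdnf per 100 of Vgf was 6.13 in control, 6.27 in susceptible, 6.81 with AAV-GFP and 6.92 with AAV-CDYL. This does not single out Vgf, since 262 genes had both differences within 0.1 of those of Bdnf.

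**Figure D3:**
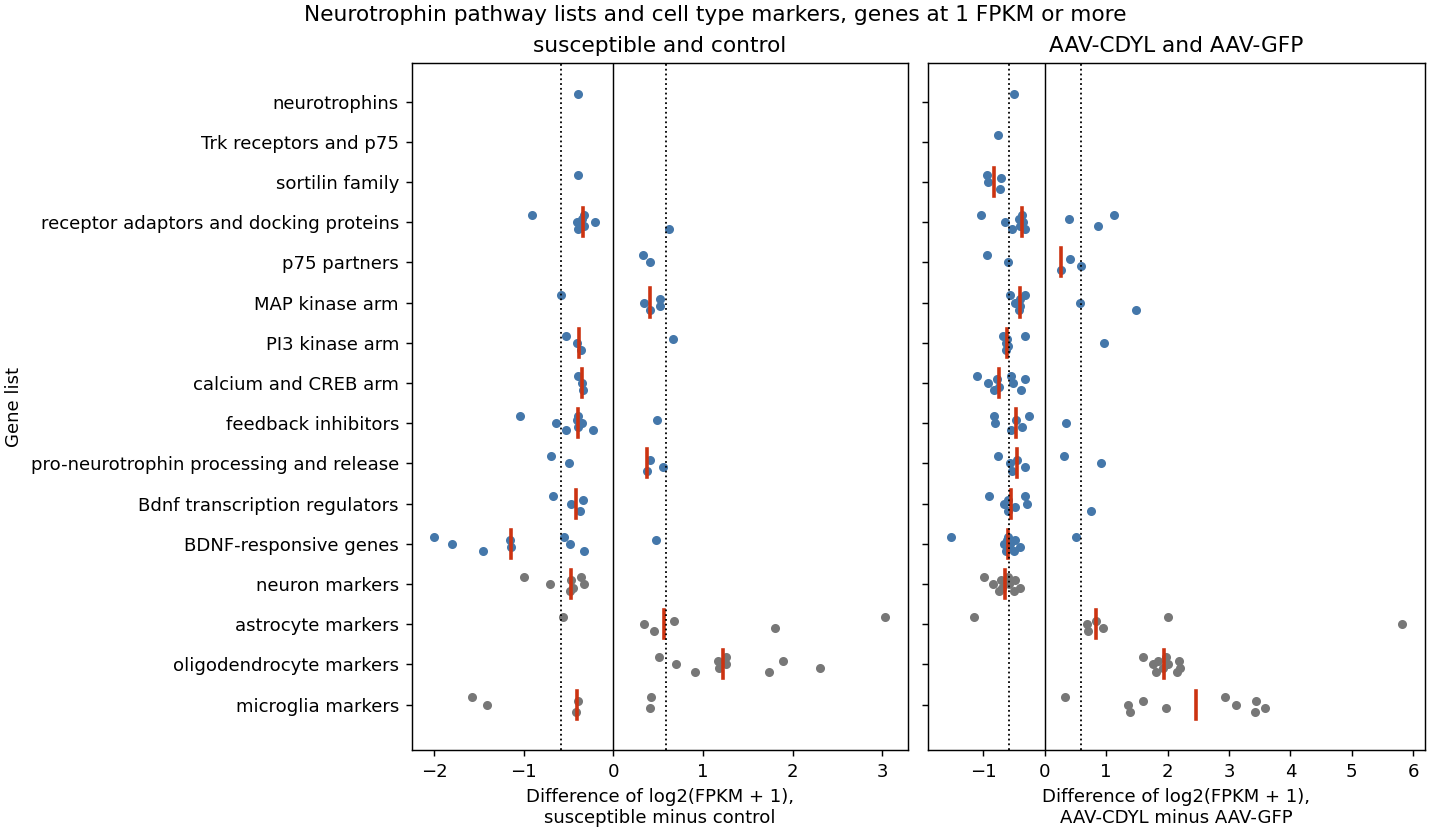
Difference of log2(FPKM + 1) for each listed gene at 1 FPKM or more, by pathway list (blue) and cell type (grey), with the median of lists of 3 or more genes in red and the 1.5-fold rule dotted. Most pathway lists with CDYL have negative medians, as the neuron markers do (-0.64), while oligodendrocyte and microglia markers lie to the right (medians of 1.95 and 2.46).

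Upstream of BDNF, processing and transcription genes included lower and higher members. Pcsk1, a prohormone convertase of the regulated pathway, was lower in both pairs, at 19.4 and 11.5 FPKM in control and susceptible and 21.8 and 12.5 FPKM with AAV-GFP and AAV-CDYL. Pcsk6, another convertase, was higher with CDYL at 3.13 and 6.81 FPKM. Of 8 regulators of Bdnf transcription at the floor with CDYL, 4 were lower and 1 higher. Bhlhe40, a repressor with a basic helix-loop-helix domain, was at 53.0 and 27.7 FPKM, and Mef2c, an activity-regulated factor, at 326 and 215 FPKM. The higher one was Rest, the repressor of neuronal genes, at 0.334 and 1.247 FPKM. In the stress pair only Nr3c1, the glucocorticoid receptor, passed the rule, at 24.7 FPKM in control and 15.1 FPKM in susceptible.

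Other neurotrophic families held higher and lower genes. Osmr, the oncostatin M receptor, was at 0.584 and 1.46 FPKM in the stress pair and 0.466 and 3.54 FPKM in the AAV pair. Among GDNF receptors Gfra1 was higher with CDYL, at 10.5 and 19.0 FPKM, and Gfra2 lower, at 52.3 and 32.1 FPKM. Mdk, the growth factor midkine, was at 6.26 and 15.1 FPKM, and Erbb4, the neuregulin receptor, at 11.2 and 5.73 FPKM.

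Over the 3236 genes at the floor in both tables, those whose pair of differences lay nearest to that of Bdnf were Tomm40l, Dcbld1, Cbx6, Ube3a and Dner, at Euclidean distances of 0.0019 to 0.011 over 2 differences from 4 libraries. Ube3a, for example, was at 23.2 and 17.2 FPKM in control and susceptible and 21.4 and 14.9 FPKM with AAV-GFP and AAV-CDYL. Altogether 262 genes had both differences within 0.1 of those of Bdnf, and 35.9% of the 3236 lay below the reference in both pairs, so many genes share this pattern. As a check of the labels, Cdyl was at 2.68 FPKM with AAV-GFP and 1052 FPKM with AAV-CDYL, and at 1.98 and 2.54 FPKM in control and susceptible.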

How the data were processed

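FPKM values were deposited by the authors in 1 table per pair. They were made with Cuffdiff on mouse build mm10, per the submitters' processing notes. For the aligner and the annotation: not given in the sources used here. The p-values and q-values printed are those deposited by the authors, from 1 column against 1 column. Per the labels' protocols, 1 µg of RNA went into a NEBNext Ultra kit. The header of the susceptible column lacks a letter of its title, and the tables were normalized separately, so levels were compared within a table only.

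Members and lists were chosen with earlier results of these data known. Calls of higher or lower needed a 1.5-fold difference of FPKM + 1, compared as log2, and a level of 1 FPKM or more in 1 of the 2 libraries. Adding 1 shrinks the differences of low genes. Folds of single genes are ratios of FPKM. Named genes were the members, up to 3 per pathway list and pair and up to 2 per marker list with the largest differences, Cdyl, and the 5 genes nearest to Bdnf; other genes are named as family members, as further examples of a list, or for a value at 0 after values were seen, and not every gene the rule took is named. Low FPKM of genes with 1 transcript (3 to 20 kb, GENCODE M21) fall in steps of 1 fragment, and 92.4% or more of those under 4.5 steps were within 0.15 of a whole number. From the step, control had an effective depth of 14250000 fragments, the susceptible library 23150000, AAV-GFP 22650000 and AAV-CDYL 23950000. Fragments per gene used the longest coding transcript, and intervals cover counting error only. The calling rule was run on simulated data with 2-fold changes and little noise, which checks the code only. That simulation held no differences between animals and changed no genes of low level. Some genes of the lists are counted but not reported here by name. Sequences are from RefSeq (GRCm38.p6). Scripts ran under Python 3.11.15 (scipy 1.17.1, pandas 2.3.3, numpy 2.4.6; plots by matplotlib 3.10.9).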

Additional observations from a re-analysis of the deposited data

How the results depend on the processing

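No paired analysis was possible because each group has 1 library. Of the members at the floor, the number lower in susceptible was 0 as reported. It became 2 with the smallest listed fold as the rule and 2 with centring on the median of genes. Under these settings 39.2% and 36.0% of all genes at the floor were lower. The number lower in AAV-CDYL was 3 as reported. It became 5 with the smallest listed fold as the rule and 5 with centring on the median of genes. A 2-fold rule gave 1, and centring on the neuron markers, which was chosen after seeing the data, gave 0. These changes follow from how each setting is built. Of all genes at the floor, 41.6%, 44.4%, 1.8% and 0.696% were lower under those settings, in that order. The number of members was 2 of 4 with shared loci left out, where Sort1 drops out and 13.8% of the remaining genes were lower. It was 3 with pseudocounts of 0.1 and 0.5 (18.7% and 16.5% of all genes) and with no floor (7.92%). A floor of 5 FPKM (17.8%) and upper quartile scaling (9.81%) also gave 3. No member was higher under any of these settings, but Ntf3 and Ngfr could be called only with no floor. There, with 1 added to each FPKM, Ntf3 was at 0.32 in the stress pair and 0.56 in the AAV pair, short of the rule. With a pseudocount of 0.1 Ntf3 was at 0.75 and 1.66, and the floor kept it from a call. Directions turned for Ngfr in the AAV pair (-0.21 with centring on the median of genes) and, on the neuron marker scale, for Bdnf (0.06 and 0.14), Shc3 in the stress pair (0.06) and Frs2 (0.28). Of 187 list medians under the settings other than the neuron marker scale, which was not applied to them, 12 changed sign or moved by over 0.32. Precision is limited most for Ntf3, Ngfr and Ntf5, each with fewer than 30 estimated fragments per library.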
